A study of Mus musculus with 41 samples.

Results

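The genes of 3 matrix metalloproteinases, *Mmp2*, *Mmp9* and *Mmp19* (proteins MMP2, MMP9 and MMP19), were measured in 41 mice as 3 of the 54 target genes of a TaqMan qPCR panel, and the 3 rows that carry these names in the table of threshold cycles were taken as they stand. All mice were female NSG, a strain without T, B and NK cells that still has neutrophils, monocytes and macrophages, and the tissue was labelled skin. P mice carried a biodegradable electrospun nanomesh (PLACL) under the abdominal skin, P+eMSC mice carried the same mesh with human endometrial mesenchymal stem/stromal cells (eMSCs) labelled with mCherry placed on it, and Sham mice carried no mesh. The eMSC lines came from several donors, the labels do not tie a line to a mouse, some animals had been used in an earlier study of the same laboratory, and the age of the mice is not given in the sources used here. Tissue was taken at 1 week from 6 mice of the P group and 7 of each of the other groups. At 6 weeks it came from 8 mice with P, 7 with P+eMSC and 6 with Sham.

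Matrix metalloproteinases are zinc enzymes that cut the proteins of the extracellular matrix and are held in check by the tissue inhibitors of metalloproteinases (TIMPs). *Mmp2* and *Mmp9* are the gelatinases. *Mmp2* (gelatinase A) is made in many tissues by fibroblasts and other stromal cells at a fairly steady level, whereas *Mmp9* (gelatinase B) is stored in neutrophil granules and is induced in macrophages and in keratinocytes at a wound edge. *Mmp19* is expressed more broadly, in skin among other tissues, and cuts basement membrane components.

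Each value is the Ct of 18S ribosomal RNA (*Rn18s*) minus the Ct of the gene in the same mouse, on a log2 scale on which 1 unit is a doubling. A value of 0 would be a gene at the 18S level, and a more negative value is a lower level. Since assays differ in efficiency, the distance between genes is not read as a difference in RNA amount, and results are differences of 1 gene, or of the distance between 2 genes, between groups of mice. Shifts are Hodges-Lehmann estimates (the median of all differences between a mouse of the first and a mouse of the second group) with a 95% interval, tested by an exact two-sided Mann-Whitney U test. A difference was called up to an exact p of 0.051. Adjusted p-values are Benjamini-Hochberg values over the 54 genes. In whole tissue, fewer cells of a type and less RNA per cell cannot be told apart.

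A pair of mice needs to be named before the results. Mouse 52 (P, 6 weeks) had no Ct in 31 of the 54 target genes, *Mmp9* and *Mmp19* among them, and its *Mmp2* value of -16.18 lay far below the next lowest in its group, -8.85. It is the mouse in which *Mmp9* and *Mmp19* went undetected, so that their P group at 6 weeks holds 7 mice, while *Mmp2* has a value in all 41. Mouse 2356 belongs by its label to P at 6 weeks, while for all 3 genes the deposited fold change of this mouse equals the one calculated against the 1 week Sham mice. Set against the 6 week Sham mice they are off by 0.56 for *Mmp2*, 0.18 for *Mmp9* and 0.09 for *Mmp19* (log2). It was kept as labelled, and results of the 3 genes whose call or sign changed without it or without mouse 52 are given both ways. Of the other fold changes, all of *Mmp2* and *Mmp9* matched the Ct table within 0.01 (log2), and those of *Mmp19* were off by 0.09 in the 7 Sham mice at 1 week.

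Mouse 52 aside, *Mmp2* had the smallest SD of the 3 genes in every group. At 1 week its values ran from -9.58 to -4.83 with a median of -7.14 in Sham, from -9.73 to -5.46 with a median of -7.49 in P, and from -11.05 to -4.92 with a median of -7.10 in P+eMSC. At 6 weeks they ran from -7.43 to -5.15 (median -6.69) in Sham, from -16.18 to -6.82 (median -7.48) in P, and from -8.51 to -4.49 (median -5.83) in P+eMSC. The ranges of all groups overlapped. In the order of the medians P+eMSC at 6 weeks stood first, followed by Sham at 6 weeks, P+eMSC and Sham at 1 week, and P at 6 weeks and at 1 week. The first neighbours in this order lay 0.86 apart, at the smaller of their SDs (0.86), and every other pair of neighbours lay closer together than the smaller SD of the pair.

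The *Mmp9* values at 1 week ran from -15.97 to -10.21 (median -12.18) in Sham, from -15.44 to -9.01 (median -12.62) in P, and from -16.50 to -9.02 (median -14.52) in P+eMSC. At 6 weeks they ran from -13.95 to -10.75 (median -12.90) in Sham, from -14.00 to -5.67 (median -11.60) in P, and from -14.44 to -7.00 (median -10.97) in P+eMSC. In the P group at 6 weeks 3 mice stood high, mouse 2307 at -5.67, mouse 53 at -7.84 and mouse 2267 at -8.16, and the next was mouse 2356 at -11.60. These 3 lay above every Sham mouse of either week, while the other 4 lay within the range of the Sham mice. P+eMSC at 6 weeks was highest by median and P+eMSC at 1 week lowest, 1.62 below Sham at 6 weeks, whose SD was 1.18. All other neighbours in the order were closer than the smaller SD.

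The medians of *Mmp19* at 1 week were -9.40 in Sham (range -12.11 to -6.55), -8.52 in P (-12.45 to -6.96) and -9.93 in P+eMSC (-14.06 to -7.17). At 6 weeks they were -9.79 in Sham (range -10.94 to -7.27), -9.45 in P (-11.65 to -7.57) and -8.02 in P+eMSC (-10.95 to -6.78). No 2 neighbours in the order of its medians, with P+eMSC at 6 weeks first and P+eMSC at 1 week last, differed by more than the smaller SD.

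**Figure D1:**
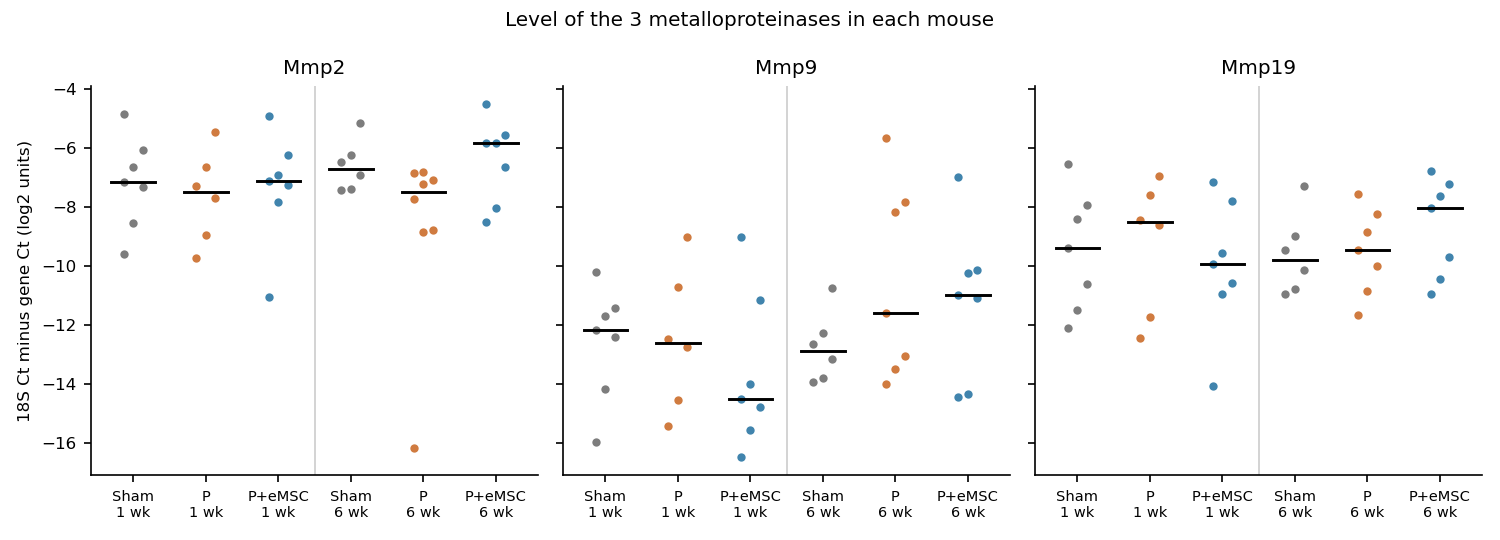
Value of *Mmp2*, *Mmp9* and *Mmp19* (18S Ct minus gene Ct, log2 units) in each mouse, by group and week, with 1 point per mouse and a line at the group median. The isolated *Mmp2* point at -16.18 in P at 6 weeks is mouse 52, which has no point for *Mmp9* or *Mmp19*, and the *Mmp9* values of P at 6 weeks spread from -14.00 to -5.67.

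The P and Sham mice were compared to ask what the mesh alone did to the level of each gene. At 1 week the shift of P against Sham was -0.48 (interval -2.59 to 1.84) for *Mmp2*, -0.32 (-3.03 to 3.23) for *Mmp9* and 0.16 (-3.04 to 3.51) for *Mmp19*. None was called by the exact Mann-Whitney test (p = 0.534, 0.836 and 1), beside 3 of all 54 genes, or 5.56%, each lower in P. At 6 weeks the shift was -1.30 (-2.62 to 0.09, exact p = 0.0813) for *Mmp2*, 1.30 (-0.87 to 5.97, exact p = 0.366) for *Mmp9* and 0.12 (-1.85 to 1.94, exact p = 0.945) for *Mmp19*. The *Mmp2* difference passed without P mouse 2356 or 437 (exact p = 0.051) or Sham mouse 2346 or 123 (exact p = 0.045), and was -0.84 (exact p = 0.138) without mouse 52. The *Mmp9* shift ran from 0.72 without mouse 53, 2267 or 2307 to 2.47 without P mouse 438, 437 or 121, and was called in neither case, and that of *Mmp19* turned to -0.031 without mouse 2356. Again none of the 3 was called in all mice, whereas 14 of 54 genes (25.9%) were, all lower in P, and the median shift over the 54 genes was -0.83. Of the 54 shifts 43 lay below 0, that of *Mmp2* among them, whereas the *Mmp9* shift ranked 4 from the top. Mouse 52 entered these values over the 54 genes only for the genes with a Ct in it, *Mmp2* among them but not *Mmp9*. They were not repeated without it.

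In the same weeks P+eMSC mice were set against the same Sham mice, so that the values for P and for P+eMSC share their controls. At 1 week the shifts were -0.094 (interval -2.27 to 2.22, exact p = 1) for *Mmp2*, -1.82 (-4.08 to 1.97, exact p = 0.456) for *Mmp9* and -0.31 (-3.0 to 2.18, exact p = 0.902) for *Mmp19*. At 6 weeks they were 0.53 (-1.54 to 1.74, exact p = 0.731) for *Mmp2*, 2.06 (-1.27 to 3.75, exact p = 0.366) for *Mmp9* and 1.04 (-0.99 to 3.17, exact p = 0.445) for *Mmp19*. No gene of the panel was called in either week (0% of 54), and limma at the same unadjusted threshold also called 0. The Ct of 18S itself was 0.32 higher in P+eMSC than in Sham at 6 weeks (exact p = 0.014), and its part in these values was not tested.

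The comparison of P+eMSC with P asks what the cells added to the mesh. At 6 weeks *Mmp2* was 2.65-fold higher with eMSCs, a shift of 1.41 (interval 0.20 to 3.24, exact Mann-Whitney p = 0.0401, adjusted p = 0.209). It was the only one of the 27 tests of the 3 genes that was called. In P+eMSC 5 of the 7 mice lay above all 8 P mice, while mice 60 and 2210 lay within the P range. The background of this comparison was high, with 10 of 54 genes called (18.5%), all higher in P+eMSC, and a median shift over all genes of 1.15, and the panel level described below shifted by 1.41 (exact p = 0.0401). The count and the median over the 54 genes include mouse 52 only for the genes with a Ct in it, and were not repeated without it. Without mouse 52 the *Mmp2* shift was 1.26 (exact p = 0.0728), and without mouse 2356 it was 1.68 (exact p = 0.0379). The call was also lost without P mouse 53 or 438 (exact p = 0.0728) and without P+eMSC mouse 529, 2399, 2351, 2317 or 2400 (exact p = 0.0813).

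The other genes did not pass the test at 6 weeks. *Mmp9* had a shift of -0.85 between P+eMSC and P (interval -4.58 to 3.03, exact p = 0.805), and *Mmp19* had one of 0.82 (-1.46 to 2.82, exact p = 0.383). The *Mmp9* shift had no stable sign. It turned to 0.57 without P mouse 2307 and to 0.08 without P mouse 53 or 2267, and also turned without P+eMSC mouse 60 or 2399 (0.57). At 1 week the P+eMSC minus P shifts were 0.42 (-1.78 to 2.63, exact p = 0.628) for *Mmp2*, -1.38 (-4.85 to 1.70, exact p = 0.366) for *Mmp9* and -1.03 (-3.36 to 2.19, exact p = 0.628) for *Mmp19*, and 0% of the 54 genes was called.

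Between 1 and 6 weeks *Mmp9* moved furthest in the P+eMSC mice. It was 3.03 higher at 6 weeks (interval -0.43 to 5.44), which is 8.17-fold and the largest shift among the 54 genes, and it did not pass the exact Mann-Whitney test (p = 0.0728, adjusted p = 0.824). Without P+eMSC mouse 10, the 1 week mouse with the highest *Mmp9*, the shift was 3.74 (exact p = 0.014), and without P+eMSC mouse 60 or 2399 it was 3.74 as well (exact p = 0.051). In P mice *Mmp9* had a shift of 1.47 (-2.33 to 6.70, exact p = 0.366), again the largest of 54, and in Sham mice one of -0.55 (-2.23 to 2.03, exact p = 0.628). The shifts of *Mmp2* over time were -0.19 in P, 1.09 in P+eMSC and 0.40 in Sham, and those of *Mmp19* were -0.51, 1.02 and -0.10, with exact p from 0.383 to 0.945. The *Mmp2* shift in P turned to 0.081 without mouse 52. Over time 0% of the 54 genes was called in P and in P+eMSC and 3.70% in Sham. In P+eMSC 51 of the 54 shifts over time lay above 0, with a median of 0.88. The panel level described below shifted by 0.78 there (exact p = 0.165). Against the panel median the *Mmp9* shift in P+eMSC was 1.51 (interval -0.47 to 4.11, exact p = 0.209), still the largest of the 54.

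Interaction terms in limma, over all 6 groups, asked whether a treatment acted differently at 6 weeks and at 1 week. For P against Sham the difference between the effects at 6 weeks and 1 week was -1.62 ± 1.5 (SE) for *Mmp2*, 2.12 ± 1.85 for *Mmp9* and -0.13 ± 1.47 for *Mmp19*. For P+eMSC against P it was 1.98 ± 1.47, 0.53 ± 1.81 and 1.55 ± 1.44 for the 3 genes in the same order. Without mouse 52 the *Mmp2* values were -0.55 for P against Sham and 0.91 for P+eMSC against P. For P+eMSC against Sham it was 0.36 ± 1.49, 2.66 ± 1.81 and 1.42 ± 1.44. No interaction passed an adjusted p of 0.05 in limma (lowest adjusted p among the 9 tests 0.485), and 0% of all 54 genes did, with or without the adjustment.

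*Mmp2* and *Mmp9* parted in how they followed the rest of the panel. The panel level of a mouse is the 18S Ct minus the median Ct of the 23 target genes detected in all 41 mice, and *Mmp2* is 1 of these 23. The 23 are the genes that had a Ct in mouse 52, so *Mmp9* and *Mmp19* are not among them. They hold matrix genes such as *Col1a1*, *Col3a1*, *Timp2* and *Timp3* and immune genes such as *Ccl5*, *Ccr2* and *Mrc1*. The panel level is thus the level of this set and not of all 54 genes. With each gene left out of its own panel median and mouse 52 left out, the correlation with the panel level over 40 mice was r = 0.957 (rho = 0.957) for *Mmp2*, the highest of the 54 genes. It was 0.868 (rho = 0.857) for *Mmp19*, rank 19, and 0.459 (rho = 0.559) for *Mmp9*, rank 50, while the median over the 54 genes was 0.727. All these values share the 18S Ct of the mouse and the same preamplified cDNA, so they are given as a description. The SD of the distance from the panel level was 0.42 for *Mmp2*, the smallest of all genes, against 2.25 for *Mmp9* and a median of 1.08.

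**Figure D2:**
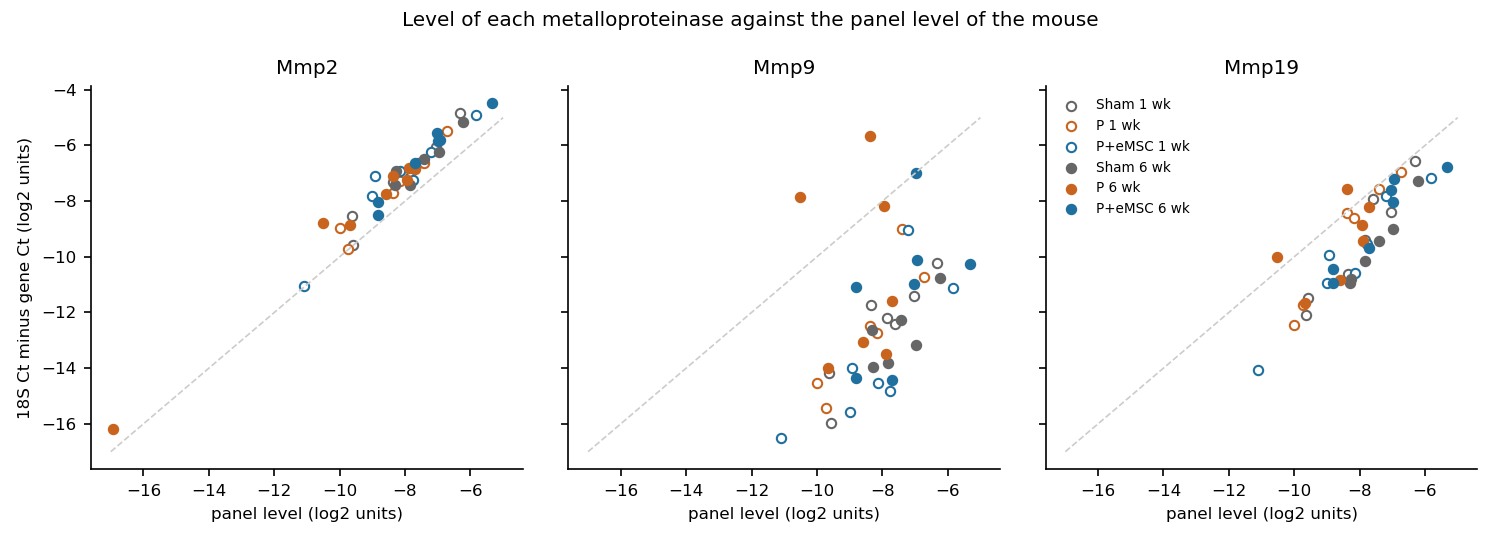
Value of each gene (18S Ct minus gene Ct, log2 units) against the panel level of the same mouse (18S Ct minus the median Ct of 23 genes, log2 units), with open points at 1 week, filled points at 6 weeks and a dashed line where both are equal. The *Mmp2* points follow 1 line down to mouse 52 at the lower left, whereas *Mmp9* scatters widely and 2 P mice at 6 weeks, 2307 and 53, stand above the dashed line.

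The panel level itself differed between groups at 6 weeks. It was lower in P than in Sham (shift -1.39, interval -3.45 to -0.07, exact p = 0.0293) and higher in P+eMSC than in P. Both differences include mouse 52, whose panel level of -16.94 lay far below the next lowest in its group, -10.52. Neither difference in panel level was tested without this mouse. When the panel median replaced 18S, the called *Mmp2* difference between P+eMSC and P at 6 weeks was 0.022 (interval -0.52 to 0.36, exact p = 0.867), and to 0.15 (exact p = 0.463) with *Mmp2* left out of the panel. The 9 *Mmp2* shifts lay between -0.15 and 0.16 against the whole panel, and between -0.082 and 0.19 with *Mmp2* left out of it. Relative to the panel, P mice at 6 weeks had more *Mmp9* and *Mmp19* than Sham mice. The shift was 1.82 for *Mmp9* (0.06 to 7.57, exact Mann-Whitney p = 0.014, adjusted p = 0.239) and 1.11 for *Mmp19* (0.04 to 2.82, exact p = 0.0221, adjusted p = 0.239). These were 2 of 7 genes called on this scale (13%), all higher in P, the others being *Ccl2*, *Ccl12*, *Ccl7*, *Il1b* and *Icam1*. *Mmp19* was also higher in P+eMSC than in Sham (0.72, interval 0.0006 to 1.74, exact p = 0.035, adjusted p = 0.962), 1 of 2 genes called there (3.70%). With *Mmp2* left out of the panel this call was lost (0.74, -0.08 to 1.80, exact p = 0.0734). At 1 week 9.26% of the genes were called between P+eMSC and P on this scale, and none was a proteinase.

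**Figure D3:**
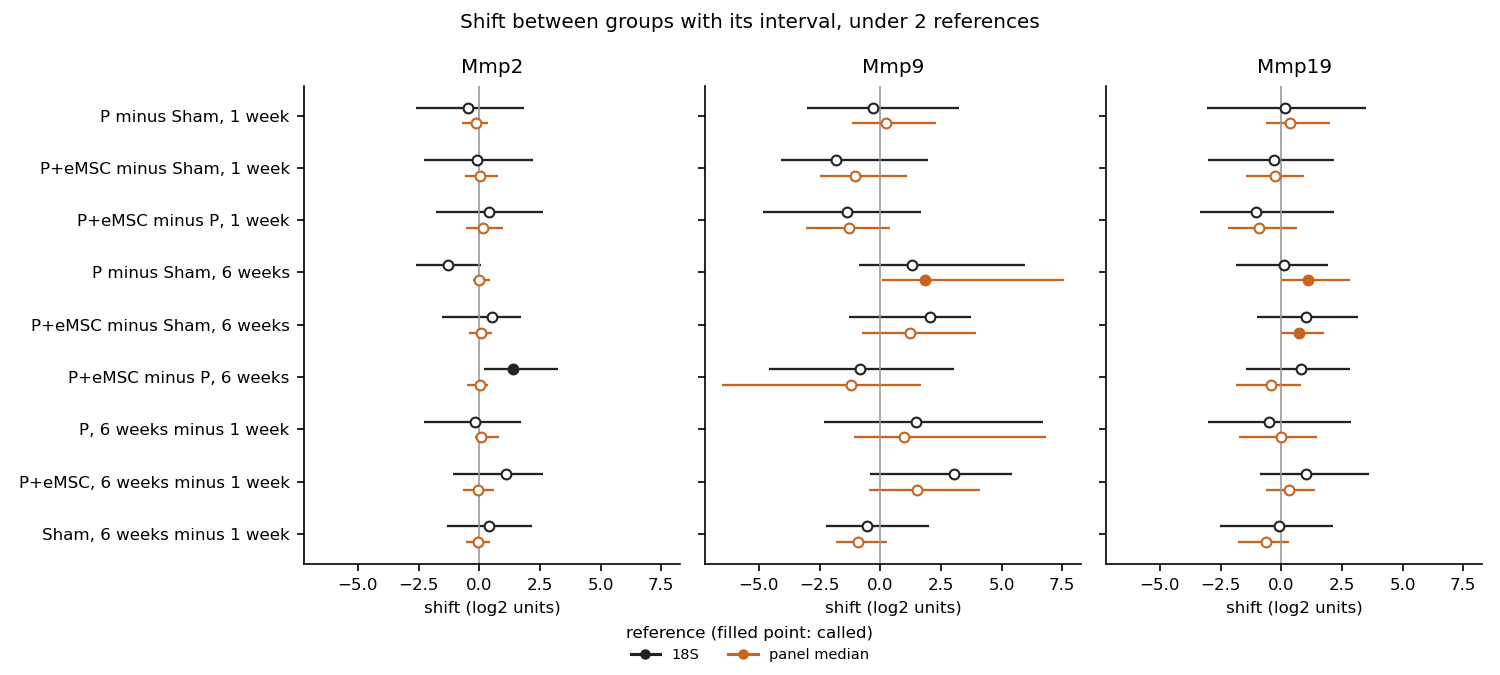
Shift of each gene in the 9 comparisons (log2 units, points) with its 95% interval (lines), against 18S (black) and against the panel median (orange), where filled points are called (exact p up to 0.051). For *Mmp2* the called shift of 1.41 between P+eMSC and P at 6 weeks becomes 0.022 against the panel median, while *Mmp9* in P against Sham at 6 weeks goes from 1.30, not called, to 1.82, called.

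The distance between 2 of the genes in the same mouse contains no 18S value. As *Mmp2* followed the panel level closely (r = 0.957), *Mmp9* minus *Mmp2* is not independent of *Mmp9* against the panel median. *Mmp9* minus *Mmp2* in Sham mice ran from -6.39 to -4.40 (median -5.38) at 1 week and from -7.04 to -5.20 (median -6.11) at 6 weeks. In P mice it ran from -5.71 to -2.37 (median -5.35) at 1 week and from -6.69 to 1.41 (median -4.76) at 6 weeks. In P+eMSC mice it ran from -7.73 to -2.78 (median -6.90) at 1 week and from -7.81 to -1.16 (median -5.42) at 6 weeks. The Sham mice thus kept within a narrow band, and the widest group was P at 6 weeks, in which mice 2307 (1.41), 53 (0.95) and 2267 (-0.93) stood apart from the other 4, all at -4.76 or below.

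At 6 weeks *Mmp9* minus *Mmp2* was higher in P than in Sham, by 1.84 or 3.58-fold (interval 0.25 to 7.21, exact Mann-Whitney p = 0.0221, adjusted p = 0.391 over the 53 genes measured against *Mmp2*). The call held without each of the 13 mice in turn (exact p from 0.0043 to 0.048), and the shift ran from 1.63 to 3.28, rising to 3.08 without mouse 2356 and to 3.28 without P mouse 438, 437 or 121. Against *Mmp2* 4 of 53 genes were called (7.55%), all higher in P, namely *Mmp9*, *Ccl2*, *Il1b* and *Ccl7*. At 1 week 9.43% of these genes were called in P against Sham, none of the 3 proteinases among them. In P+eMSC the same distance was 1.19 above Sham (-0.64 to 3.98, exact p = 0.234) and 1.08 below P (-6.36 to 1.70, exact p = 0.259), neither called.

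At 1 week the distance did not pass the test in P+eMSC. *Mmp9* minus *Mmp2* had a shift of -1.87 against P (interval -2.93 to 0.15, exact p = 0.0734) and had a shift of -1.26 against Sham (-2.35 to 0.33, exact p = 0.0973). P+eMSC mouse 10 stood alone at -2.78, the others lying at -5.44 or below, and without it the exact p was 0.015 against P and 0.014 against Sham; without mouse 78 it was 0.0411 against P. *Mmp19* minus *Mmp2* was lower in P+eMSC than in P at 1 week (shift -1.20, -2.15 to 0.39, exact p = 0.051, adjusted p = 0.247), 1 of 11 of the 53 genes called against *Mmp2* (20.8%), all lower in P+eMSC. This call held without P+eMSC mouse 10 (exact p = 0.0411) or P mouse 2355 (exact p = 0.0051) and was lost without any of the other 11 mice (exact p from 0.0649 to 0.106). *Mmp9* minus *Mmp19* was called in none of the 9 comparisons (exact p from 0.138 to 0.945). Against *Mmp19* the share of all 53 genes called was 1.89% in P against Sham, 0% in P+eMSC against Sham and 9.43% in P+eMSC against P at 1 week. At 6 weeks the shares were 9.43%, 9.43% and 1.89% in the same order, and over time they were 1.89% in P, 3.77% in P+eMSC and 7.55% in Sham.

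**Figure D4:**
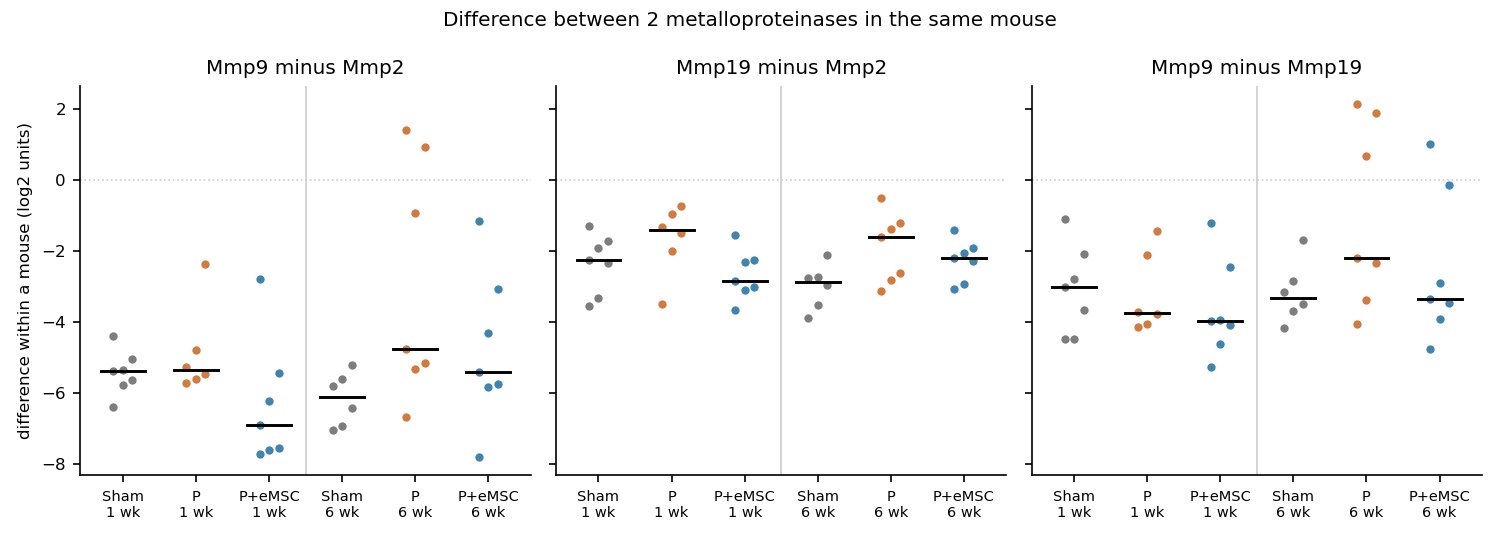
Distance between 2 genes in the same mouse (log2 units) by group and week, with 1 point per mouse and a line at the median. For *Mmp9* minus *Mmp2* the Sham mice at 6 weeks lie between -7.04 and -5.20, while P mice at 6 weeks reach 1.41.

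The spread within groups set the genes apart as well. In P mice at 6 weeks, mouse 52 left out, the SD was 3.29 for *Mmp9*, the 3rd largest of the 54 genes, 1.44 for *Mmp19* and 0.87 for *Mmp2*, rank 51, against a median SD of 1.47. In Sham mice at 6 weeks the SD was 1.18 for *Mmp9*, 1.37 for *Mmp19* and 0.86 for *Mmp2* (rank 45), against a median of 1.11. The difference in spread was not tested. In P+eMSC mice at 6 weeks the SD of *Mmp9* was 2.59 (rank 11) and that of *Mmp2* was 1.42 (rank 32).

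Likeness between genes was read as Pearson's r over mice on the panel median scale, which removes the shared panel level. *Mmp2* was most like the collagen genes *Col3a1* (r = 0.544), *Col6a1* (0.491) and *Col6a2* (0.488). Without the 2 mice that lay farthest out these were 0.440, 0.323 and 0.416, and Vcam1, an adhesion molecule of endothelium, stood first (0.452). *Mmp9* was most like *Tgfb1* (0.702), a cytokine that regulates matrix genes, *Cd44* (0.666), a hyaluronan receptor that can hold *Mmp9* at the cell surface, and *Mmp19* (0.633). Its likeness to *Tgfb1* rested largely on 2 mice, with r = 0.359 without the 2 that lay farthest out. *Mmp19* was most like *Timp1* (0.755), the lymphoid homing receptor *Ccr7* (0.733) and the T cell chemokine *Ccl5* (0.715). *Mmp2* and *Mmp9* were only weakly alike (r = 0.356). On the 18S scale the leading genes were *Timp2* (0.974) for *Mmp2*, *Cd44* (0.738) for *Mmp9* and *Tgfb1* (0.951) for *Mmp19*. The points are 39 to 41 mice that share the preamplified cDNA of each mouse and the reference, and the r values are a description.

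Of the inhibitors, all 4 *Timp* genes were measured. In P against Sham at 6 weeks 3 of the 4 were called, all lower in P, where 25.9% of all genes were, with a median shift of -1.77 beside -0.83 over all genes. *Timp2*, which binds the proenzyme of *Mmp2* and takes part in its activation, fell by 1.70 (interval -3.30 to -0.62, exact p = 0.00133, adjusted p = 0.036), and *Timp3*, the inhibitor bound to the matrix, fell by 1.84 (-4.65 to -0.52, exact p = 0.00133, adjusted p = 0.036). *Timp4* fell by 1.95 (exact p = 0.02), and *Timp1*, the inhibitor that pairs with *Mmp9*, had a shift of 0.35 (-1.81 to 3.45, exact p = 0.445). The P values of *Timp2*, *Timp3* and *Timp4* include mouse 52, and their exact tests were not repeated without it. In P+eMSC against P at 6 weeks 1 of 4 was called, where 18.5% of all genes were. It was *Timp3*, higher by 1.90 (exact p = 0.0205, adjusted p = 0.158), and the median shift was 1.67 beside 1.15. On the panel median scale none of the 4 was called in these 2 comparisons. In the other 7 comparisons no *Timp* gene was called against 18S. Both on the panel median scale and against *Mmp2*, *Timp2* was called lower in P+eMSC than in Sham at 6 weeks. On the same scales it was called higher in Sham at 6 weeks than at 1 week. *Timp1* was called lower in P+eMSC than in P at 1 week against *Mmp2*.

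Against 18S the 5 collagen genes (*Col1a1*, *Col3a1* and 3 chains of type VI) were called in none of the 9 comparisons. Against *Mmp2* *Col6a1* was called higher in Sham at 6 weeks than at 1 week. Their median shift was -0.84 in P against Sham and 1.18 in P+eMSC against P at 6 weeks, close to the medians of all genes. Of 9 genes that induce the proteinases or act with them, 3 were called lower in P than in Sham at 6 weeks, near the 25.9% of all genes, namely the growth factors *Tgfb3* (-2.07, exact p = 0.00799) and *Tgfb2* (-1.31, exact p = 0.00816) and the receptor *Tgfbr1* (-1.04, exact p = 0.02), and their median shift was -0.55. In P+eMSC against P at 6 weeks, *Tgfbr1* and *Tgfb3* were higher (1.39 and 2.24, exact p = 0.00591 and 0.00932), where 18.5% of all genes were called. The median of the 9 genes was 0.78 beside 1.15 over all genes. On the panel median scale *Tgfb2*, *Tgfb3* and *Tgfbr1* were called in neither of these 2 comparisons. *Tgfb3* was also lower in P than in Sham at 1 week (-0.63, exact p = 0.051), and in Sham *Tgfb2* and *Tgfb3* were higher at 6 weeks than at 1 week (1.32 and 0.64, exact p = 0.035 for each).

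The 2 measured neutrophil chemokines (*Cxcl1* and *Cxcl2*) and the 3 monocyte chemokines (*Ccl2*, *Ccl7* and *Ccl12*) were called in no comparison against 18S. On the panel median scale 13% of the 54 genes were called in P against Sham at 6 weeks, all higher in P, with a lowest adjusted p of 0.239. They included *Mmp9*, *Mmp19* and all 3 monocyte chemokines, but neither neutrophil chemokine. The shifts were 1.1 for *Ccl2* (exact p = 0.014), 1.20 for *Ccl12* (exact p = 0.02) and 1.63 for *Ccl7* (exact p = 0.0221). *Il1b*, a cytokine that induces *Mmp9*, was higher by 3.41 (exact p = 0.035). *Ccl12*, *Ccl7* and *Il1b* were also called higher in P than in Sham at 1 week on that scale, the only 3 of 54 genes called. *Mmp9* was not called there (shift 0.23, exact p = 0.836). *Ccl2* was called lower in P+eMSC than in P at 6 weeks on that scale. At 1 week *Cxcl1*, *Ccl7* and *Ccl2* were lower in P+eMSC than in P on that scale, with shifts of -2.08 (exact p = 0.014), -1.42 (0.035) and -1.75 (0.051). Of all 54 genes 9.26% were called there, all lower in P+eMSC.

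Markers of other cell types that skin can hold were detected in every group. Of 10 leukocyte markers 6 were measured (*Ccr1*, *Ccr2*, *Ccr7*, *Mrc1*, *Arg1* and *Nos2*), while *Itgb2*, Cd86, Cd80 and the neutrophil receptor *Cxcr2* were not analysed here. Their summed level at 6 weeks ran from -7.94 to -4.44 in Sham, from -16.20 to -5.43 in P and from -9.10 to -3.64 in P+eMSC. None of the 6 was called against 18S in any comparison. In P against Sham at 6 weeks their median shift on the panel median scale was 0.62, beside 0.26 over all genes, and none of the 6 was called there. *Ccr1* was called lower in P+eMSC than in P at 1 week on the panel median scale and against *Mmp2*, and higher in P than in Sham at 1 week against *Mmp2*. Of the 6 stromal markers (5 collagens and *Cxcl12*) none was called against 18S in any comparison, and their summed level at 6 weeks ran from -3.0 to -0.47 in Sham, from -10.64 to -0.58 in P and from -3.77 to 0.87 in P+eMSC. The epithelial marker *Cdh1* ranged from -14.03 to -6.90 in Sham, from -18.99 to -8.63 in P and from -15.39 to -5.95 in P+eMSC at 6 weeks. Of 4 endothelial and perivascular markers Ang1 was lower in P than in Sham at 6 weeks (-1.58, exact p = 0.051), and no other was called against 18S. The part of the cell mixture in the shifts of the 3 proteinases was not tested.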

How the data were processed

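The authors made cDNA from tissue of 41 mice, preamplified it for 14 cycles and ran TaqMan assays on Fluidigm arrays. The authors deposited Ct values with no normalization (999 or empty where none was called) and fold change ratios, 2 to the power of minus the ΔΔCt against 18S and Sham. The Ct values the authors deposited were used here as 18S Ct minus gene Ct, a log2 scale; log2 of the deposited fold ratios served as an alternative. Groups came from the labels, each mouse was 1 sample, and undetected values were left out. Precision is limited by the number of mice, since qPCR gives no read depth.

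The 9 comparisons used exact two-sided Mann-Whitney tests (Python 3.11.15, scipy 1.17.1) and the interactions limma 3.58.1 in R 4.3.3, both checked on simulated data. The alternatives were the panel median as reference, imputed undetected values, an exact permutation test, limma (called at the same unadjusted p) with and without the animal number series (below 1000 or above 2000), Benjamini-Hochberg calls and leaving out each mouse. A panel median without *Mmp2* was added after seeing the data. The genes named beyond the 3 came from set lists (at most 3 of lowest p in each) and from the highest r; genes called beside a member were named after their values were seen. The members and lists were chosen with earlier results of these data known. Each symbol matched 1 RefSeq gene; no sequence is printed.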

Additional observations from a re-analysis of the deposited data

Results flagged for a closer look

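Of 36 sets of values (3 genes and 3 distances between genes in 6 groups), 2 held a mouse far from the rest by Dixon's test, at a level at which chance marks about 1 in 20. The *Mmp2* value of mouse 52 (P, 6 weeks) was -16.18, and the results without it are given above. The distance *Mmp9* minus *Mmp2* of mouse 2308 (P, 1 week) was -2.37, while the other 5 mice of its group lay between -5.71 and -4.80.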

How the results depend on the processing

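No paired analysis was possible because the number of a mouse occurs in 1 group and each mouse received 1 treatment. With the panel median as reference, *Mmp2* turned to 0.050 (P+eMSC minus Sham, 1 week), 0.0088 (P minus Sham, 6 weeks), 0.087 (P over time), -0.041 (P+eMSC over time) and -0.065 (Sham over time) and lost its call in P+eMSC minus P at 6 weeks (0.022), *Mmp9* turned to 0.23 (P minus Sham, 1 week) and was called at 1.82 (P minus Sham, 6 weeks), and *Mmp19* was called at 1.11 (P minus Sham) and 0.72 (P+eMSC minus Sham) and turned to -0.42 (P+eMSC minus P) at 6 weeks. Without *Mmp2* in that median the *Mmp2* values were 0.16 (P+eMSC minus Sham, 1 week) and 0.15 (P+eMSC minus P, 6 weeks). The *Mmp9* value was 0.25 (P minus Sham, 1 week), and *Mmp9* in P minus Sham at 6 weeks was called at 1.69. For *Mmp19* the values were 1.08 and -0.31 (P minus Sham and P+eMSC minus P, 6 weeks) and 0.015 (P over time). *Mmp19* in P+eMSC minus Sham at 6 weeks lost its call (0.74). The interactions turned on the panel median to 0.23 and -0.23 (*Mmp2*, P minus Sham and P+eMSC minus P), -0.65 (*Mmp9*, P+eMSC minus P) and 0.69 (*Mmp19*, P minus Sham), and with the animal number series to -0.017 (*Mmp9*, P+eMSC minus P) and 0.13 (*Mmp19*, P minus Sham).

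The call of *Mmp2* in P+eMSC minus P at 6 weeks was lost with the deposited fold changes (1.41, exact p = 0.0541), with an exact permutation test of the mean (difference 2.28, p = 0.0525), with the number series in limma (1.91) and after adjustment (1.41), as were after adjustment the calls of *Mmp9* minus *Mmp2* (1.84) and *Mmp19* minus *Mmp2* (-1.20; -1.01 by permutation). With the number series *Mmp2* in P minus Sham at 6 weeks was called (-2.14), *Mmp2* in P+eMSC minus Sham turned to -0.23 and *Mmp19* in P minus Sham to -0.13 at 1 week and -0.0044 at 6 weeks. The mean of *Mmp9* in P minus Sham at 1 week turned to 0.094 in limma and by permutation. With undetected values set below the lowest, *Mmp9* in P+eMSC minus P turned to 0.57 and *Mmp19* in P minus Sham to -0.18. *Mmp19* minus *Mmp2* turned to 0.015 in P over time and was called in P minus Sham (1.35). Mouse 52 then had an *Mmp19* value just below the lowest measured (-14.06, mouse 78), beside a measured *Mmp2* of -16.18. Its distance thus lay above the highest measured (-0.49, mouse 2307), so this turn and this call rest on the set value. By permutation of the measured values *Mmp19* minus *Mmp2* was called in P minus Sham (1.1) and in P+eMSC minus Sham (0.73) at 6 weeks. The number of genes called went from 14 to 7 (P minus Sham) and from 10 to 2 (P+eMSC minus P) at 6 weeks on the panel median, and to 2 and 0 after adjustment. It became 1, 5, 2, 1 and 1 on the panel median in P+eMSC minus Sham and P+eMSC minus P at 1 week, P+eMSC minus Sham at 6 weeks, P+eMSC over time and Sham over time, and 0 after adjustment and in limma in P minus Sham at 1 week and Sham over time. The causes were not tested.

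Leaving out 1 mouse at a time changed a call or a sign in 27 of 63 results. The shifts of *Mmp2* ran from -0.37 to 0.22 (P+eMSC minus Sham, 1 week), -1.42 to -0.79 (P minus Sham, 6 weeks), 1.25 to 1.79 (P+eMSC minus P, 6 weeks), -0.52 to 0.13 (P over time) and -0.26 to 0.77 (interaction of P+eMSC minus Sham). The shifts of *Mmp9* ran from -0.56 to 0.70 (P minus Sham, 1 week), -1.36 to 0.57 (P+eMSC minus P, 6 weeks), 2.10 to 3.74 (P+eMSC over time) and -0.16 to 1.35 (interaction of P+eMSC minus P). The shifts of *Mmp19* ran from -0.24 to 0.82 (P minus Sham, 1 week), -1.15 to 0.34 (P+eMSC minus Sham, 1 week), -0.062 to 0.69 (P minus Sham, 6 weeks), -1.02 to 0.077 (P over time), -0.65 to 0.52 (Sham over time) and -0.76 to 0.34 (interaction of P minus Sham). The shifts of *Mmp9* minus *Mmp2* ran from -1.67 to -1.14 (P+eMSC minus Sham, 1 week), -2.01 to -1.43 (P+eMSC minus P, 1 week), 1.32 to 1.90 (P+eMSC over time) and -1.03 to -0.54 (Sham over time). The shifts of *Mmp19* minus *Mmp2* ran from 0.42 to 0.97 (P minus Sham, 1 week), -1.51 to -0.98 (P+eMSC minus P, 1 week), 0.89 to 1.35 (P minus Sham, 6 weeks) and 0.58 to 0.82 (P+eMSC minus Sham, 6 weeks). The shifts of *Mmp9* minus *Mmp19* ran from -0.48 to 0.34 (P minus Sham, 1 week), 1.05 to 2.17 (P minus Sham, 6 weeks), -0.13 to 0.29 (P+eMSC minus Sham, 6 weeks) and -0.42 to 0.24 (Sham over time).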
